A study of Mus musculus with 15 samples.

Results

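Described here are the 7 *E2a-/-* T cell leukemia lines alone: the genes they expressed at the highest level, how far they carried T-lineage genes, and the genes that differed most and least between them. They are 7 of 15 sequenced leukemia lines, taken by the genotype in their labels and by line names that begin with SKO. The other 8 lines, named DKO, lack *Lef1* in T cells as well, and no test against them was made. Each *E2a-/-* line came from the thymus of an FVB/NJ mouse with a germline deletion of *E2a*, and was grown in OPTI-MEM with serum and mercaptoethanol, with no treatment. Total RNA was extracted in Trizol and sequenced on a NextSeq instrument, 1 library per line. A line is 1 leukemia that grew out in culture, so the spread between lines holds differences between mice, tumours and cultures together, and the labels name no batch.

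Expression is given in CPM, the reads of a gene scaled so that the reads on genes sum to the same total in every line. A gene symbol is given here for 12172 of the listed genes. SKO156.6 had the fewest reads on the listed genes, 14477802, the median line 18584597, and SKO95 the most, 21681586. A single read was worth 0.0461 CPM in SKO95 and 0.0690 CPM in SKO156.6, so 3 reads made 0.138 to 0.207 CPM, and a value at or under that floor cannot be distinguished from 0. Intervals and floors cover counting error only. Spread is the standard deviation (SD, n = 7 lines) of log2(CPM + 1), computed for the 9710 genes whose mean reached 5 CPM, and an SD of 1 stands for a typical distance of 2-fold from the mean. The remaining 2835 listed genes had a lower mean. A gene that reaches the minimum mean through 1 line has to vary, so the count of variable genes in a list is to be read beside the 12.3% of all 9710 genes with an SD of 1 or more.

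E2A is one of the E proteins, basic helix-loop-helix transcription factors that pair with HEB or with each other on E-box sequences and that Id proteins block. In the thymus E proteins drive T-lineage commitment, recombination of T cell receptor genes and the arrest of growth before receptor selection, and mice that lack E2A develop T cell leukemia. Normal thymocytes pass from a CD4-CD8- stage, marked by CD25, the IL-7 receptor and Notch target genes, through a CD4+CD8+ stage to mature cells that leave the thymus, and leukemias tend to keep part of the program of the stage at which growth took over.

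*Tcf3*, the gene of E2A, was read in every line. It stood at 156 CPM in SKO95, 162.5 in SKO115.2, 152 in SKO132, 176 in SKO137.1, 151 in SKO156.6, 243 in SKO163.5 and 186.7 in SKO186.5. SKO163.5 was highest, and the other lines lay close together, with an SD of 0.24 over the 7. Because each gene has 1 value, transcripts of the deleted exons of *Tcf3* cannot be separated from those of the exons that remain, and the values say nothing on E2A protein. Of the other E proteins, *Tcf12*, which encodes HEB, was expressed in all lines, from 485 CPM in SKO132 through a median of 802 to 998 CPM in SKO137.1. *Tcf4*, the gene of E2-2, ranged from 0.0948 CPM in SKO186.5 through a median of 24.6 to 111 CPM in SKO95, with an SD of 2.83, and 2.65 with SKO156.6 and SKO186.5 averaged. It was at 1.76 CPM or lower in SKO115.2, SKO156.6 and SKO186.5 and at 24.6 CPM or more in the other lines. Among the inhibitors, *Id2* stayed between 44.1 and 83.5 CPM in 6 lines and was at 5.07 CPM in SKO132. *Id3* was highest at 74.4 CPM in SKO115.2 and 73.4 in SKO163.5 and lowest at 6.56 in SKO156.6. *Id1* had a mean of 3.02 CPM and reached 13.6 CPM in SKO163.5. Of the 5 E protein and Id genes at a mean of 5 CPM, 3 had an SD of 1 or more, and 2 without SKO132. Of all 9710 genes, 1192 (12.3%) did so, and 957 without SKO132.

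SKO132 stands apart from the other lines, and SKO156.6 and SKO186.5 are closer to each other by correlation than any other pair. Across all listed genes the median Spearman's rho of a line with the 6 others was 0.887 for SKO132, and between 0.913 for SKO115.2 and 0.941 for SKO137.1 for the rest. Genes are not independent replicates, so these correlations across genes are given with no p. SKO156.6 and SKO186.5 correlated at 0.987 and had 200 genes at least 2-fold apart among the 9710, where the median of the 21 pairs was 1316 genes. Both lines were also close to SKO137.1, with rho of 0.964 and 0.965 and 743 and 717 genes 2-fold apart. SKO115.2 and SKO163.5 formed the next closest pair by that count, with rho of 0.969 and 544 genes. SKO115.2 and SKO132 were farthest apart, with 2007 genes.

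The pair was also compared on reads. On whole reads, a chi-square statistic per degree of freedom is near 1 when a pair differs by counting alone. It was 56.0 for SKO156.6 and SKO186.5, 53.8 for SKO137.1 and SKO156.6, the lowest of the 21 pairs, and 125 in the median pair. For a given difference the statistic grows with the number of reads. SKO156.6 and SKO137.1 had the fewest, 14477802 and 16063674, against 21074701 in SKO186.5, so it does not rank these pairs on equal terms. Because every pair lay at 53.8 or more, this statistic cannot decide whether the pair is 1 line or 2. The labels name SKO156.6 and SKO186.5 as separate lines. They were kept as 2 lines, and spread is also given with the pair averaged (n = 6). Of their 200 genes 2-fold apart, 31 were higher in SKO156.6 and 169 in SKO186.5. The 5 of them given here were chosen after their values were seen. *Rn7sk*, the RNA that holds the elongation factor P-TEFb inactive, was at 55.9 CPM in SKO156.6 and 1.80 CPM in SKO186.5. *Lars2*, the gene of mitochondrial leucyl-tRNA synthetase, was at 6031 and 525 CPM, and the other 5 lines lay between 530.1 and 1418 CPM. *Malat1*, a long noncoding RNA of nuclear speckles, went the other way, with 151 CPM in SKO156.6 and 910.1 CPM in SKO186.5. *Cbl*, a ubiquitin ligase that restrains receptor signalling, and *Srcap*, a chromatin remodeller, were at 109 against 435 CPM and at 28.9 against 123 CPM. SKO156.6 had the fewest reads of the 7 lines, and the part of depth or RNA quality in these differences was not tested.

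**Figure D1:**
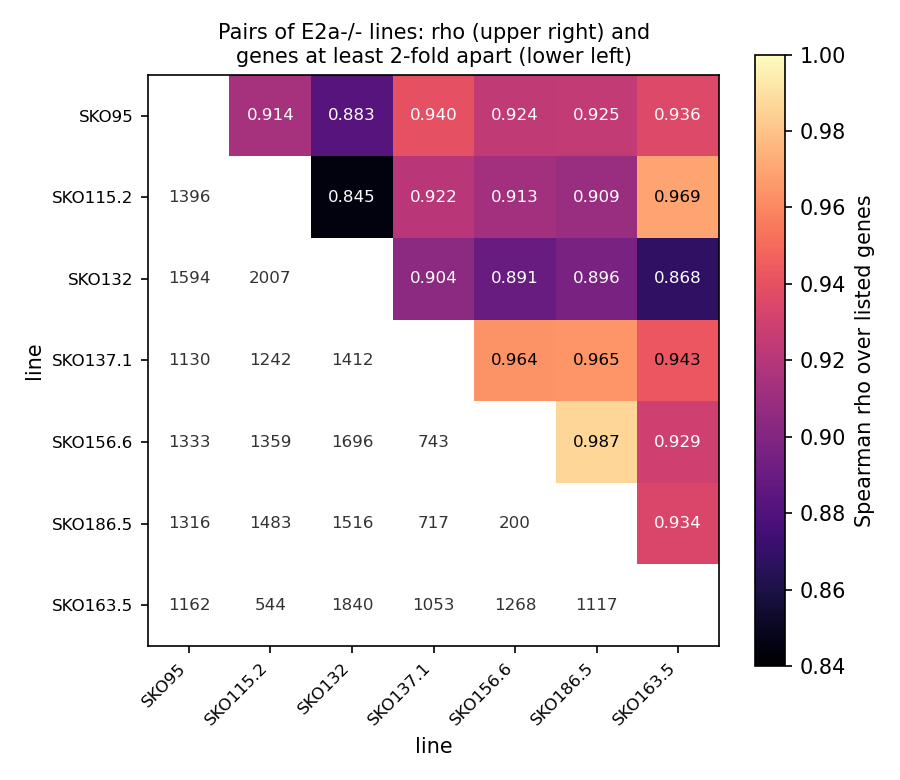
Numbers and colours at the upper right give Spearman's rho across all listed genes for each pair of the 7 lines, and numbers at the lower left give how many of 9710 genes were at least 2-fold apart. SKO156.6 and SKO186.5 had 200 such genes, SKO115.2 and SKO163.5 had 544, and each pair with SKO132 had 1412 or more.

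Receptor genes told most lines apart. In these lists 5 β, 1 α or δ and 4 γ receptor genes reached a mean of 5 CPM. All had an SD of 1 or more, the α gene only with SKO132, where 12.3% of all 9710 genes did. Genes that reach the minimum mean through few lines have to vary, so these counts are no support on their own. A T cell rearranges 1 V gene of the β chain to make its receptor, so a leukemia that arose from a single cell reads mostly 1 or 2 of them. The table lists 10 *Trbv* genes, and shares are of the reads on these 10 with 95% Wilson intervals. *Trbv2* took 94.1% of 5842 reads in SKO95 (93.5% to 94.7%), and *Trbv20* took 85.8% of 8724 reads in SKO115.2 (85.0% to 86.5%). *Trbv5* took 96.1% of 3718 reads in SKO137.1 (95.5% to 96.7%), and *Trbv19* took 93.6% of 12548 reads in SKO163.5 (93.2% to 94.0%). These 4 lines each read mostly 1 gene, a different one in each. SKO132 split its 4777 reads between *Trbv5* at 61.1% (59.7% to 62.5%) and *Trbv2* at 38.8% (37.4% to 40.2%). *Trbv26* led in both SKO186.5, with 81.0% of 2710 reads (79.5% to 82.4%), and SKO156.6, with 61.6% of 1522 reads (59.2% to 64.0%), and in no other line. Of the other *Trbv* genes, SKO156.6 read *Trbv19* most, at 11.5% (9.99% to 13.2%), and SKO186.5 read *Trbv5*, at 6.97% (6.07% to 7.995%).

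The constant regions followed a different order. *Trbc2* was read in every line, from 184 CPM in SKO186.5 through a median of 309 to 843 CPM in SKO163.5. *Trbc1*, the constant region of the first β cluster, was between 85.5 and 383 CPM in 6 lines and at 0.276 CPM in SKO132, and *Trbj1-6*, a joining segment of that cluster named after its values were seen, was listed at 0 in SKO132 and at 1.81 CPM or more elsewhere. *Trac*, the α constant region, was highest in SKO132 at 112 CPM, with the other lines between 5.31 and 18.4 CPM. The same line read the V gene *Trav21-dv12* at 54.2 CPM, where the other 6 were at 1.12 CPM or lower. Transcripts of the γ locus marked another set of lines. *Tcrg-C4* was at 155 CPM in SKO115.2 and 44.4 CPM in SKO163.5, and at 1.10 CPM or lower in the other 5. Of the reads on 3 listed γ chain V genes, *Tcrg-V1* took 94.7% of 715 in SKO115.2 (92.8% to 96.1%) and *Tcrg-V4* 47.5% of 765 in SKO163.5 (43.9% to 51.0%). SKO156.6 and SKO186.5 read mainly *Trgv2*, with 96.4% of 56 reads (87.9% to 99.0%) and 95.2% of 42 (84.2% to 98.7%).

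Among sex-linked genes *Xist* gave the widest difference. *Xist*, the noncoding RNA that coats the inactive X chromosome, was at 3278 CPM in SKO137.1, 1793 in SKO156.6, 4098 in SKO163.5 and 4662 in SKO186.5, and at 1.21 CPM or lower in SKO95, SKO115.2 and SKO132. Its SD of 5.81 was the largest of the 9710 genes, and 5.99 with the pair averaged. The Y-linked genes were highest in SKO115.2, and all but *Ddx3y* were next highest in SKO95. *Ddx3y*, an RNA helicase, was at 129 CPM in SKO115.2 and listed at 0 in SKO95. *Eif2s3y*, a translation factor, was at 97.1 and 50.0 CPM, and *Kdm5d*, a histone demethylase, at 62.3 and 51.2 CPM in the same lines. *Uty* was at 27.4 CPM in SKO115.2 and 5.76 CPM in SKO95. In SKO132 none of the 5 genes was listed at 0 and none was above 1.21 CPM, with *Ddx3y* at 0.717 and *Uty* at 0.607 CPM. *Eif2s3y* and *Kdm5d* were not both above the floor of 3 reads there.

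The labelled cell type, T cell leukemia, was checked on 29 T-lineage genes. All 29 are listed and reached a mean of 5 CPM, and 22 reached 5 CPM in every line. Without SKO132, 26 did so. None was listed at 0 in any line, but some values were at the floor of 3 reads, which cannot be distinguished from 0. Such were *Ptcra* in SKO132 and *Cd5* in SKO156.6 and SKO186.5. Their summed level was 7427 CPM in SKO132, 8334 in SKO95, 10868 in SKO186.5, 10936 in SKO156.6, 11275 in SKO137.1, 12374 in SKO163.5 and 13209.6 in SKO115.2, and *Tcf7* was the most abundant member by mean CPM. All 7 lines thus read the T-lineage genes as a group. RNA was taken from whole cultures, so fewer cells of a type and less RNA per cell cannot be told apart.

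The steadiest members were a surface gene and a signalling gene of T cells. *Thy1*, a glycoprotein of the T cell surface, ranged from 799 CPM in SKO95 through a median of 919.8 to 1021 CPM in SKO137.1, with an SD of 0.14. *Cd247*, the ζ chain of the receptor complex, ranged from 117 to 158 CPM around a median of 136.6, with an SD of 0.15. These 2 were the only members of the list with an SD under 0.15. The transcription factors *Runx1*, *Gata3*, *Bcl11b* and *Ets1*, which establish T-cell identity, had SDs of 0.36, 0.38, 0.41 and 0.48. *Bcl11b*, which seals commitment to the lineage, stood at 248 CPM in SKO95, at a median of 350.0 and at 552 CPM in SKO115.2. *Cd3e* of the CD3 complex went from 184 CPM in SKO132 through 331 to 461 CPM in SKO156.6. For its partners *Cd3d* and *Cd3g* SKO132 was low as well, at 47.0 and 142 CPM, and the other 6 lines lay at 289.9 to 579 CPM and 448 to 699 CPM.

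Of the 29 genes, 12 (41.4%) had an SD of 1 or more, where 1192 of all 9710 genes (12.3%) did. Without SKO132 the count was 7 of 29, where 957 of the 9710 genes reached an SD of 1. The median SD of the list fell from 0.85 with 7 lines to 0.56 without SKO132, and was 0.86 with the pair averaged. SKO132 was the lowest line for 14 of the 29 genes and SKO95 for 8, where they were the lowest for 1941 and 1533 of all 9710 genes. SKO115.2 was the highest for 14, where it was the highest for 1636 of all 9710 genes. *Ikzf1*, which encodes Ikaros, a zinc finger factor that restrains leukemia in the T lineage, was at 3.86 CPM in SKO132 and at 252 to 847 CPM in the other lines. *Zap70*, the kinase that the receptor recruits, was at 35.9 CPM in SKO132 and at 135 to 196 CPM elsewhere. The SD of *Ikzf1* went from 2.69 to 0.63 without SKO132, and that of *Zap70* from 0.87 to 0.19. By contrast *Satb1*, an organizer of chromatin in thymocytes, was as high in SKO132 as in SKO137.1, at 884 and 885 CPM, and lowest in SKO115.2 at 153 CPM.

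Several members varied over all lines and not by SKO132 alone. *Cd6*, a scavenger receptor that tunes T cell activation, was at 123 CPM in SKO115.2 and 77.7 CPM in SKO163.5, with a median of 3.55 and 0.276 CPM in SKO156.6. Its relative *Cd5* was highest in the same line, at 21.2 CPM, and at 0.207 and 0.142 CPM in SKO156.6 and SKO186.5. Both receptors were highest in SKO115.2 and SKO163.5 and lowest in SKO156.6 and SKO186.5. *Cd2*, an adhesion receptor, went from 0.496 CPM in SKO132 through 22.7 to 203 CPM in SKO115.2. *Cd7* had a mean of 9.63 CPM and was highest in SKO115.2 at 39.1 CPM. *Cd27*, a costimulatory receptor, was at 225 CPM in SKO115.2, 225 CPM in SKO163.5 and lowest in SKO132 at 10.9 CPM. *Tox*, a factor of thymic development, was at 56.2 CPM or more in SKO95, SKO115.2, SKO163.5 and SKO132 and between 15.5 and 20.2 CPM in SKO137.1, SKO156.6 and SKO186.5.

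**Figure D2:**
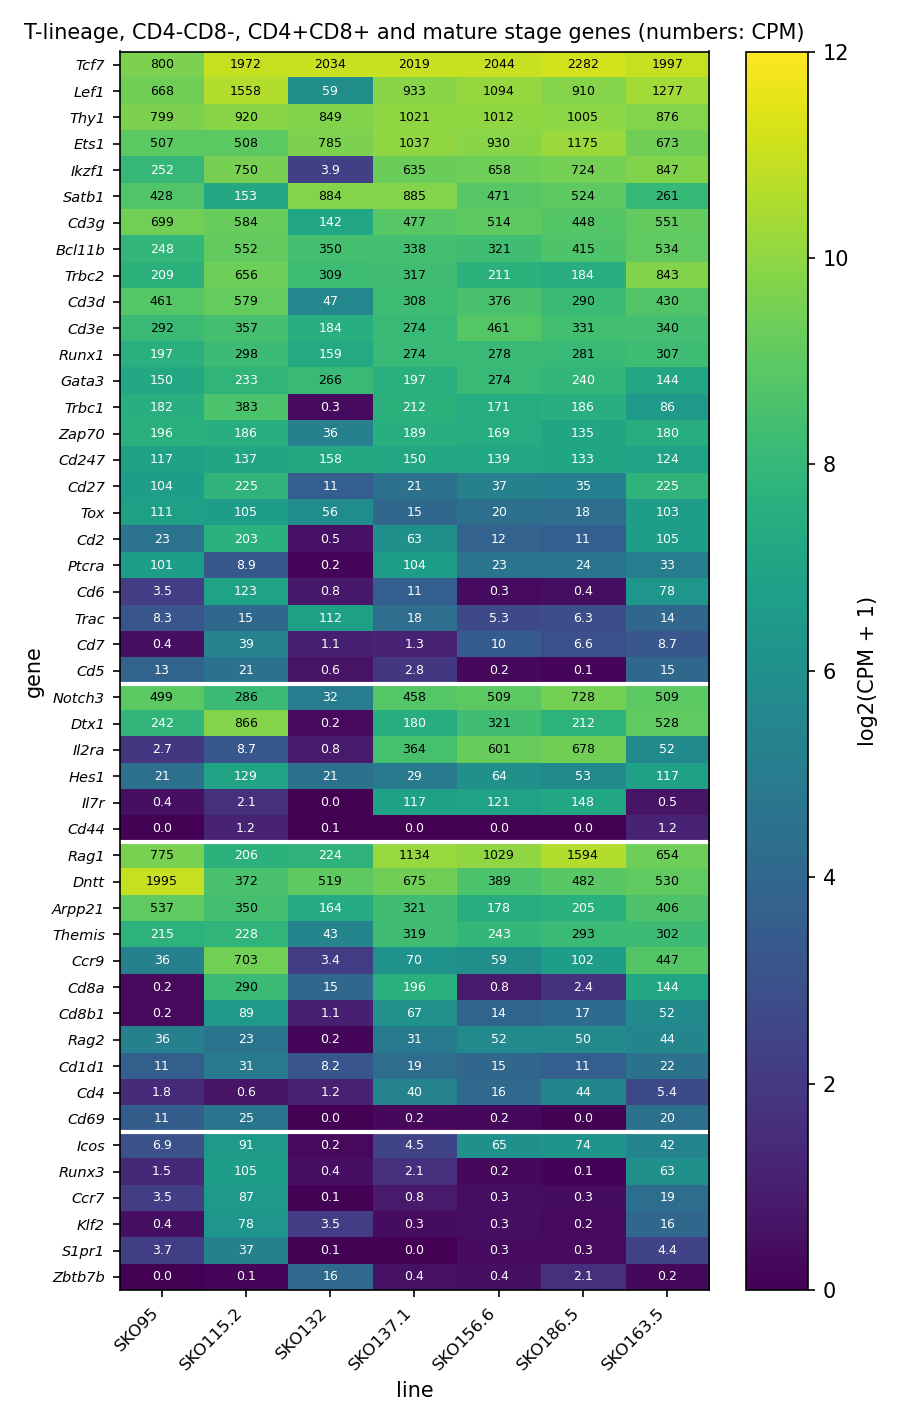
Each cell gives the CPM of a gene in a line, coloured by log2(CPM + 1), and white lines separate the T-lineage genes from genes of the CD4-CD8- stage, of the CD4+CD8+ stage and of mature T cells. *Thy1* lies between 799 and 1021 CPM in all lines, while *Il2ra* is at 364 CPM or more in SKO137.1, SKO156.6 and SKO186.5 and at 51.8 CPM or lower in the others.

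Markers of B, myeloid and erythroid cells were few among the listed genes and low apart from *Ighm*. Some NK and stromal genes, given below, reached higher levels. Of 12 B cell genes 5 are listed, and the receptor genes *Cd79a* and *Cd79b* are not among them. Only *Ighm*, the heavy chain of IgM, reached a mean of 5 CPM, and it ranged from 19.5 CPM in SKO115.2 through a median of 151 to 259 CPM in SKO95. The summed level of the list went from 26.3 CPM in SKO115.2 to 264 CPM in SKO95. *Blnk*, *Cd22* and *Igll1* were at 3.92 CPM or lower in every line, and *Igkc*, the light chain constant region, was read only in SKO95, at 0.0461 CPM, which is below the floor. Of 16 myeloid genes 3 are listed, with a summed level of 8.99 CPM in SKO95 to 16.7 CPM in SKO163.5. *Itgam* was the most abundant, at a mean of 8.77 CPM, and *Lyz2*, a lysozyme, was at 1.84 CPM or lower. Of 12 erythroid and megakaryocyte genes 3 are listed, with a summed level of 4.17 CPM in SKO137.1 to 22.9 CPM in SKO115.2 and *Gata1* as the most abundant, at a mean of 5.39 CPM.

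Genes of NK and innate lymphoid cells were led by *Gzma*. Of 17 such genes 7 are listed, with a summed level of 316 CPM in SKO95, 572 in the median line, SKO115.2, and 903 in SKO132, and *Klrb1c*, which encodes an NK cell receptor, was at 0.276 CPM or lower. *Gzma*, the gene of the protease granzyme A, was read in all lines, from 311 CPM in SKO95 through 467 to 816 CPM in SKO186.5. *Rora*, a nuclear receptor of innate lymphoid cells, was at 304 CPM in SKO132 and at 3.82 to 62.1 CPM elsewhere. *Prf1*, *Nkg7* and *Il2rb* were highest in SKO115.2, at 8.19, 24.7 and 43.8 CPM, and *Tbx21*, the gene of T-bet, was highest in SKO132 at 7.94 CPM. Of 12 stromal, endothelial and epithelial genes 4 are listed. Their summed level went from 187.0 CPM in SKO95 to 692 CPM in SKO186.5, led by *Pdgfrb*, a growth factor receptor, at 14.5 CPM in SKO132, a median of 104 and 407 CPM in SKO186.5. *Col1a2*, a collagen chain, went from 1.84 CPM in SKO95 to 278 CPM in SKO156.6. An SD of 1 or more was reached by 2 of 3 stromal, 2 of 3 NK, 1 of 1 B cell, 0 of 1 myeloid and 0 of 1 erythroid genes at a mean of 5 CPM. Of all 9710 genes, 12.3% reached it. The part of other cells in the spread between lines was not tested.

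Among genes of the CD4-CD8- stage, the receptor genes *Il2ra* and *Il7r* separated SKO137.1, SKO156.6 and SKO186.5 from the rest, while SKO132 was the lowest line for 6 of the 7 genes of this list at a mean of 5 CPM and for 1941 of all 9710 genes. All 7 had an SD of 1 or more, and 4 without SKO132, where 1192 (12.3%) and 957 of all 9710 genes did. *Il2ra*, which encodes CD25, was at 364 CPM in SKO137.1, 601 in SKO156.6 and 678 in SKO186.5, at 51.8 CPM in SKO163.5, and at 8.65 CPM or lower in the remaining lines. *Il7r*, the α chain of the IL-7 receptor, was at 117, 121 and 148 CPM in the same 3 lines and at 2.12 CPM or lower in the other 4. The 3 lines with both receptors correlated with each other at 0.964 or more. *Ptcra*, the pre-T receptor chain that pairs with a new β chain, followed another order, with 104 CPM in SKO137.1, 101 in SKO95 and 0.165 in SKO132 around a median of 24.2. *Cd44*, carried by the earliest thymic progenitors, was at 1.24 CPM or lower in every line.

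Notch receptors and their targets drive this stage. Of 13 such genes at a mean of 5 CPM, 8 had an SD of 1 or more with 7 lines and 4 without SKO132. Of all 9710 genes, 1192 (12.3%) and 957 did. The summed level of the 15 listed Notch genes was 629 CPM in SKO132 and 3151 to 4174 CPM in the other lines. *Notch3*, itself a Notch target, was at 32.2 CPM in SKO132 and at 286 to 728 CPM elsewhere. *Dtx1*, a ubiquitin ligase induced by Notch, was at 0.221 CPM in SKO132, 179.9 in SKO137.1 and 866 in SKO115.2, and its SD fell from 3.16 to 0.87 without SKO132. *Hes1*, a repressor induced by Notch, did not single SKO132 out, with 20.7 CPM there, 20.5 in SKO95 and 129 in SKO115.2. *Hey1*, another repressor of that family, was read in SKO95 at 128 CPM and at 0.474 CPM or lower in the other 6 lines. *Notch2* was highest in SKO132, at 73.4 CPM, and lowest in SKO156.6, at 12.4 CPM. The DNA-binding partner *Rbpj* and the coactivator *Maml1* were steady, with SDs of 0.15 and 0.16. *Myc*, a growth regulator downstream of Notch, lay between 260.2 CPM in SKO95 and 435 CPM in SKO137.1, with 334 CPM in SKO132.

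At the CD4+CD8+ stage 9 of 12 genes had an SD of 1 or more, and 7 without SKO132. Of all 9710 genes, 1192 (12.3%) did so, and 957 without SKO132. The recombinase genes were read in most lines. *Rag1* went from 206 CPM in SKO115.2 through a median of 775 to 1594 CPM in SKO186.5. *Rag2* was between 23.4 and 51.6 CPM in 6 lines and at 0.165 CPM in SKO132, and its SD went from 1.95 to 0.43 without that line. SKO132 thus read *Rag1* and lacked *Rag2* at this depth. *Dntt*, the polymerase that adds bases at receptor joints, was at 1995 CPM in SKO95 and at 372 to 675 CPM in the others. *Arpp21* and *Cd1d1* were the steadiest of the list, with SDs of 0.65 and 0.61, and *Themis*, a regulator of selection, was at 43.2 CPM in SKO132 and at 215 CPM or more elsewhere.

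The coreceptors split the lines in other ways. *Cd8a* was at 290.1 CPM in SKO115.2, 196 in SKO137.1, 144 in SKO163.5, 15.3 in SKO132 and 2.42 CPM or lower in SKO186.5, SKO156.6 and SKO95. *Cd8b1*, the β chain of the same coreceptor, was at 89.3, 67.0 and 52.3 CPM in those first 3 lines, and also at 13.8 and 17.1 CPM in SKO156.6 and SKO186.5. *Cd4* was highest in SKO186.5 at 44.2 CPM and SKO137.1 at 39.8 CPM, and lowest in SKO115.2 at 0.570 CPM. SKO137.1 was high for both coreceptors, SKO115.2 and SKO163.5 mainly for CD8, and SKO95 low for both. *Ccr9*, a homing receptor, was at 703 CPM in SKO115.2 and 447 CPM in SKO163.5, with 3.36 CPM in SKO132. *Cd69*, an early activation antigen, was read in SKO115.2, SKO163.5 and SKO95, at 24.5, 20.4 and 10.7 CPM, and at 0.207 CPM or lower in the other 4.

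Genes of mature T cells and of exit from the thymus were highest in SKO115.2. All 9 members at a mean of 5 CPM had an SD of 1 or more, with or without SKO132. Of all 9710 genes, 1192 (12.3%) did so, and 957 without SKO132. SKO115.2 was the highest line for each of the 9 and for 1636 of all 9710 genes. *Klf2*, the factor that switches on exit receptors, was at 77.7 CPM in SKO115.2, 15.6 in SKO163.5 and 3.53 CPM or lower elsewhere. *Ccr7* and *S1pr1*, receptors for chemokines and for sphingosine phosphate, were highest in the same lines, with 87.4 and 36.8 CPM in SKO115.2 and 19.03 and 4.41 CPM in SKO163.5. *Runx3*, a factor of CD8 cells, was at 105 and 63.4 CPM in these 2 lines and at 2.11 CPM or lower in the other 5. *Icos*, a costimulatory receptor, was instead shared by SKO115.2 at 90.8 CPM, SKO186.5 at 73.8, SKO156.6 at 64.9 and SKO163.5 at 41.6. *Zbtb7b*, which directs cells to the CD4 lineage, was at a mean of 2.79 CPM and reached 16.3 CPM in SKO132.

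SKO115.2 and SKO163.5 were also the lines with the most γδ T cell transcripts. The 7 listed members reached a mean of 5 CPM and all had an SD of 1 or more, where 12.3% of all 9710 genes did. Members that reach that mean through few lines have to vary. The summed level of the 7 was 523 CPM in SKO115.2 and 304 CPM in SKO163.5, against 104 CPM in SKO95, the next. *Sox13*, a factor of γδ cells, was at 176 CPM in SKO115.2, 162.9 in SKO163.5 and 103 in SKO95, and at 3.93 CPM or lower elsewhere. *Blk*, a Src family kinase, was at 137.3 CPM in SKO115.2 and 8.60 CPM in SKO163.5. *Zbtb16*, which encodes PLZF, a factor of innate-like T cells, broke the order, with its highest level of 70.7 CPM in SKO186.5 and 0 in SKO95. Of the GIMAP genes, GTPases of lymphocyte survival, the 7 at a mean of 5 CPM all had an SD of 1 or more, with the same limit. Their summed level over the 9 listed genes was 656 CPM in SKO115.2, 428 CPM in SKO163.5 and 7.83 to 51.9 CPM in the others. *Gimap4*, for instance, was at 177 CPM in SKO115.2, 71.0 in SKO163.5 and 2.21 CPM or lower in the rest.

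Progenitor genes were mostly absent from the list of genes. Of 15, 5 are listed, and *Kit*, the receptor of stem cell factor, reached a mean of 5 CPM. It was at 104 CPM in SKO132, at a median of 19.8 CPM, at 0.124 in SKO137.1 and at 0 in SKO95. *Lmo1*, an oncogene of T cell leukemia, was read in SKO115.2 and SKO163.5 alone, at 11.8 and 11.6 CPM, and listed at 0 in the other 5. *Tal1*, its partner oncogene, was highest in SKO95 at 7.97 CPM. The Hox genes in the table, 3 in number, had means of 1.12 CPM or lower.

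*Eef1a1*, the elongation factor that brings aminoacyl-tRNA to the ribosome, had the highest mean over the 7 lines, 7554 ± 461 CPM (SD, n = 7), ahead of *mt-Co1*, a subunit of cytochrome c oxidase, at 7321 ± 701 CPM. Next in order came the chaperone *Hsp90ab1* at 5007 ± 692 CPM and the elongation factor *Eef2* at 4451 ± 231 CPM among nuclear genes, and *mt-Co3*, *mt-Cytb* and *mt-Nd1* among mitochondrial ones. The first 20 genes took 7.24% of the summed mean CPM, from 2122 CPM for *Actb* upward, and 8 of them are encoded by the mitochondrial genome. The other 12 also include *Ptma*, *Tubb5*, *Ncl*, *Hnrnpa2b1*, *Pabpc1*, *Rpl4*, *Rpl8* and *Scd2*. The 20 highest genes of each line took between 6.95% of its CPM in SKO115.2 and 8.63% in SKO156.6. Levels of different genes can be set against each other only per length, and by mean CPM per kilobase of exons *mt-Co3* came first at 6128, *mt-Co1* second at 4739 and *Eef1a1* sixth at 3030.1. By that measure 14 of the 20 genes were the same, and short genes such as *Rplp1*, a ribosomal stalk protein, at 1933 CPM per kilobase, entered the list.

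None of the 20 genes with the highest mean had an SD of 1 or more, and none had 1 line apart. Their SDs went from 0.0756 for *Eef2* to 0.65 for *mt-Nd2*, and of 14 mitochondrial genes at a mean of 5 CPM none had an SD of 1 or more. *Eef1a1* lay between 6906 CPM in SKO137.1 and 8039 CPM in SKO115.2. *Scd2*, a fatty acid desaturase, was the widest of the nuclear genes in this list, at 5370.2 CPM in SKO132, a median of 2109.7 and 1617 CPM in SKO163.5. *mt-Nd2*, a subunit of complex I, ranged from 1266 CPM in SKO115.2 through 2262 to 4203 CPM in SKO95. The summed level of the 19 listed mitochondrial genes was lowest in SKO115.2 at 27869 CPM and highest in SKO156.6 at 45308 CPM. SKO156.6 was therefore high for mitochondrial transcripts, and for *mt-Rnr2*, the large ribosomal RNA of mitochondria, it read 2011 CPM where SKO186.5 read 1079 CPM.

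Spread was small for most genes and large for some. The SDs of the 9710 genes had a median of 0.28, with 0.19 and 0.50 at percentiles 25 and 75 and 0.11 and 1.86 at percentiles 5 and 95. With the pair averaged the median was 0.27, and without SKO132 and with the pair averaged (n = 5, chosen after the data were seen) it was 0.24 over the same 9710 genes. Counting of reads alone gave a median SD of 0.049, and 110 genes (1.13%) had an SD within 1.5 times their own counting SD. The median biological coefficient of variation in edgeR was 0.289. An SD of 1 or more was reached by 1192 genes, which is 12.3%, and an SD under 0.15 by 1343 genes, which is 13.8%. For 836 genes (8.61%) 1 line stood apart, meaning that the gap between the highest or lowest line and its neighbour, over the whole range of log2(CPM + 1), was above the 95% limit of Dixon's ratio. By chance about 1 gene in 20 would lie above that limit.

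Genes with few reads varied more. Among 887 genes with a mean of 5 to 10 CPM the median SD was 0.69 and 37.8% had an SD of 1 or more. Among 2689 genes at 20 to 50 CPM these were 0.28 and 11.4%, and among 250 genes at 500 CPM or more 0.21 and 3.20%. The counting SD was 0.11 in the lowest of these classes and 0.013 in the highest, far under the spread between lines in both. Of the 9710 genes, 364 (3.75%) were at 20 CPM or more in 1 line and at 3 reads or fewer in another. SKO95 was the line at the floor for 199 of these 364 genes, the most of any line, and SKO163.5 for 68, the fewest.

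**Figure D3:**
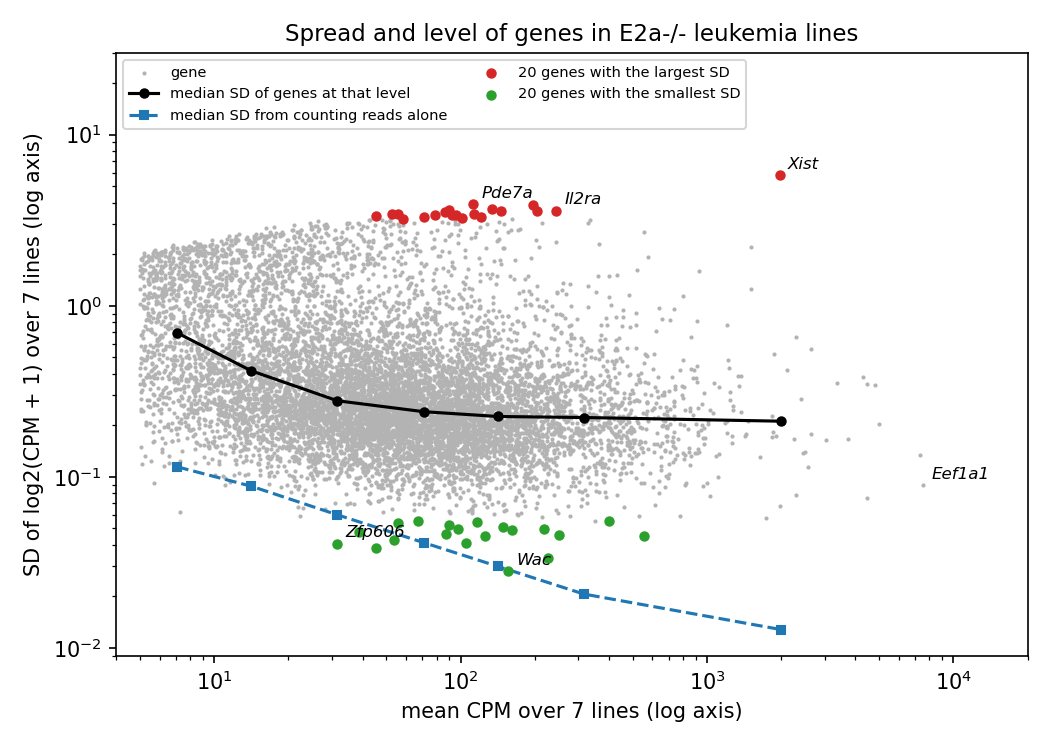
Each small point is 1 of the 9710 genes with a mean of 5 CPM or more, red and green for the 20 with the largest and the smallest SD, with its mean CPM on a log axis across and its SD of log2(CPM + 1) over 7 lines on a log axis upward. Black points give the median SD of 7 classes of level, which falls from 0.69 to 0.21, and blue squares the median SD that counting reads alone would give, which falls from 0.11 to 0.013.

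SKO132 and SKO95 supplied most of the genes with 1 line apart. SKO132 stood apart for 453 of the 836 genes, high for 193 and low for 260, and SKO95 for 169, high for 34 and low for 135. The others followed with 79 genes for SKO115.2, 51 for SKO156.6, 39 for SKO163.5, 23 for SKO137.1 and 22 for SKO186.5. Without SKO132, 623 of the 9590 genes at a mean of 5 CPM in the other 6 lines had 1 line apart. When each of the 1192 variable genes was split at the widest gap between its ordered lines, the most frequent pattern was SKO132 alone and low, ahead of SKO132 alone and high, with 138 genes, and SKO95 alone and low, with 131. Next came SKO115.2 and SKO163.5 together and high, with 75 genes, and these 2 with SKO95 and high, with 57. SKO156.6 and SKO186.5 together were low for 44 genes and high for 25, and with SKO137.1 they were low for 26 and high for 19.

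Each pattern held genes of known function, named here after their values were seen where no rule chose them. *Dnmt3a*, a DNA methyltransferase often mutated in leukemia, was at 0.276 CPM in SKO132 and at 169.9 to 239 CPM in the other 6 lines. *Crebbp*, a histone acetyltransferase, was at 0.221 CPM in SKO132 and at 50.6 to 98.7 CPM elsewhere. Without SKO132 their SDs were 0.18 and 0.39. In SKO95 the kinase *Braf* was at 1.29 CPM and the Ikaros relative *Ikzf3* at 3.41 CPM, where the lowest of the other lines were at 39.9 and 118 CPM. *Bcl2*, an inhibitor of apoptosis, was high in SKO95, SKO115.2 and SKO163.5, at 65.1, 109 and 92.7 CPM, and at 3.42 CPM or lower in the other 4.

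Of the genes high in the same 3 lines 4 are given, 3 of them chosen for this pattern after their values were seen. *Dusp6*, a phosphatase of ERK, was at 163.9 CPM in SKO95, 109.7 in SKO115.2 and 61.7 in SKO163.5, and at 2.24 CPM or lower in the others. The transcription factor *Etv5* was at 379.9, 401 and 196 CPM in these lines and at 10.4 CPM or lower elsewhere. *Spry4*, of the Sprouty family, was at 9.95, 33.6 and 25.2 CPM and listed at 0 in the other 4 lines. *Dusp4*, which the ranking by SD had chosen, was at 34.0, 314 and 143 CPM, with SKO137.1 next at 4.91 CPM. In all 4 of these genes the 3 lines lay above the other 4 without overlap, a split that the choice by pattern fixed for the first 3.

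SKO156.6 and SKO186.5, alone or with SKO137.1, had genes of their own. *Ryr2*, *Vdr* and *Mecom* were chosen for this pattern after their values were seen, so the choice fixed their split. *Ryr2*, a calcium release channel, was at 48.4 and 107 CPM in the pair and at 1.29 CPM or lower in the other lines. *Vdr*, the vitamin D receptor, was at 94.6 and 171 CPM in the pair and at 8.40 CPM or lower elsewhere. *Mecom*, which encodes EVI1, a transcription factor of stem cells and leukemia, was at 36.9, 62.0 and 76.9 CPM in the 3 lines and at 3.23 CPM or lower in the others. *Ccnd1*, the gene of cyclin D1, did not follow the pair, with 28.5 CPM in SKO156.6, 6.40 in SKO186.5, 88.0 in SKO95 and 72.7 in SKO163.5.

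The 20 genes with the largest SD had SDs from 3.20 to 5.81 and means from 45.4 CPM upward, and 6 of them were listed at 0 in a line. Of the 20, 13 were at 20 CPM or more in 1 line and at 3 reads or fewer in another. *Xist*, *Il2ra*, *Il7r*, *Cd8a* and *Dusp4* among them are described with their groups. *Pde7a*, a phosphodiesterase of T cells, was at 324 CPM in SKO115.2, 221 in SKO163.5, 210.0 in SKO95 and 29.9 in SKO132, and at 0.332 CPM or lower in SKO186.5, SKO156.6 and SKO137.1. *Pkp4*, a junction-associated armadillo protein, was low in the same 3 lines, at 0.0622 CPM or lower, and at 54.1 to 112 CPM in the other 4. *Gfra1*, a receptor for the growth factor GDNF, was at 0 and 0.190 CPM in SKO156.6 and SKO186.5 and at 92.9 to 406 CPM in the other 5. Its SD was 3.88, and 3.28 with the pair averaged.

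Lines SKO115.2 and SKO163.5 were high for many of the 20. *Igfbp4*, a binding protein of insulin-like growth factors, was at 484 and 137.09 CPM in these lines and at 2.40 CPM or lower in the rest. *Afdn*, the junction protein afadin, was at 471 and 312 CPM against 5.18 CPM or lower. *Sorl1*, a sorting receptor, was at 207 and 154 CPM against 5.30 CPM or lower. *Tox2*, a relative of *Tox*, was at 252 and 147 CPM against 4.42 CPM or lower. These 4 genes split the lines in the same way. *Crip1*, a small zinc-binding protein, was high in SKO95 as well, at 119 CPM beside 663 and 224 CPM. *Adam19*, a membrane protease, was at 264 and 220.0 CPM, at 32.1 and 31.2 CPM in the pair, and at 1.18 CPM or lower in the other 3 lines.

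Others of the 20 turned on SKO132 or were low in SKO95 and SKO132. *Ccn4*, a secreted target of Wnt signalling, was at 818 CPM in SKO132 and at 16.05 CPM or lower elsewhere, and *Dlk1*, a Notch ligand relative of immature cells, was at 699 CPM in SKO132 and 3.32 CPM or lower elsewhere. Without SKO132 their SDs fell from 3.30 to 1.52 and from 3.28 to 0.79. Of the 20, 19 kept an SD of 1 or more without that line. The list itself kept 13 of its 20 genes without SKO132 and 12 without SKO115.2, the fewest, where leaving out SKO137.1 kept 17. *Tspan9*, a tetraspanin, was at 0 in SKO132, 0.138 CPM in SKO95 and 14.4 to 395 CPM in the others. *Igf2bp3*, a fetal RNA-binding protein, was at 0.0922 CPM or lower in these 2 lines and at 88.6 to 222 CPM in the other 5. *Chd3*, a helicase of the NuRD complex, was at 579 CPM in SKO132 and 208 to 407 CPM in SKO137.1 and the pair, and at 5.11 CPM or lower in SKO95, SKO115.2 and SKO163.5. *Ctnnd1*, which encodes the cadherin partner p120-catenin, split the lines as *Chd3* did, with 49.4 to 241 CPM against 1.24 CPM or lower.

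**Figure D4:**
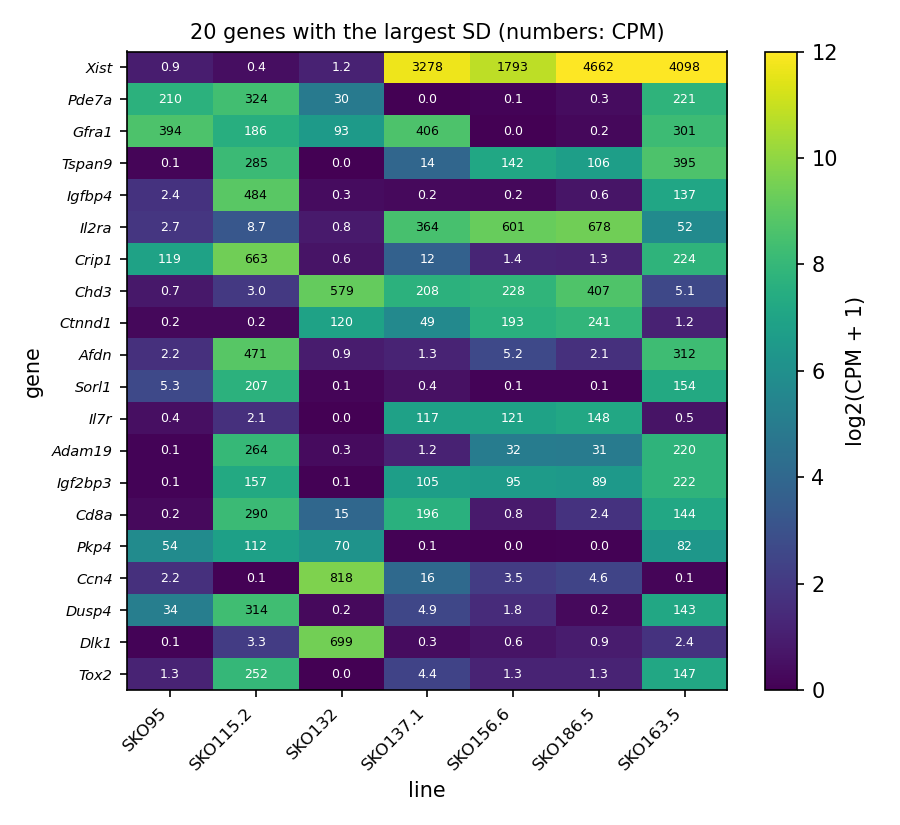
Each cell gives the CPM of 1 of the 20 genes with the largest SD in a line, coloured by log2(CPM + 1). *Xist* is at 1793 CPM or more in 4 lines and at 1.21 CPM or lower in 3, and *Igfbp4*, *Afdn*, *Sorl1* and *Tox2* are high in SKO115.2 and SKO163.5.

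Each line also had genes farthest from the median of the others, with the pair treated as 1 line. In SKO95 these were, upward, the predicted gene *Gm525* at 200.1 CPM, with 0.0690 CPM or lower elsewhere, then *Trbv2* and *Hey1*. Downward they were *Xist*, then *Tln2*, a talin that links integrins to actin, and then *Chd3*. *Tln2* was at 0.138 CPM in SKO95, where the others had 11.3 to 298 CPM. SKO115.2 lacked *Rnpep*, an aminopeptidase, listed at 0 there and at 36.1 to 96.4 CPM in the others, and *Tbc1d4*, a regulator of glucose transport, at 0.0518 CPM against 18.5 to 111 CPM. SKO132 was high for *Thbs2*, a matrix glycoprotein, at 359.9 CPM, and *Ybx3*, a cold shock domain protein, at 268 CPM, with 0.323 CPM or lower for both elsewhere. It also lacked *Skap1*, an adaptor of T cell adhesion, at 0.165 CPM where the others had 108 to 324 CPM.

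In SKO137.1 *Dst*, a cytoskeletal linker, was at 0.0622 CPM, where the others lay between 8.27 and 372 CPM, and *Wls*, which carries Wnt proteins to the surface, was at 0. *Wls* was low in SKO163.5 as well, at 0.591 CPM, and between 11.7 and 182 CPM in the other 5 lines. *Gm266*, a predicted gene, was shared by SKO137.1, SKO156.6 and SKO186.5, at 76.8, 79.8 and 79.4 CPM, with SKO163.5 next at 11.1 CPM. *Myo5a*, an unconventional myosin, was low in SKO163.5 and SKO95, at 3.28 and 0.507 CPM, and at 27.3 CPM or more elsewhere. In SKO156.6 and SKO186.5 *Asns*, the gene of asparagine synthetase, whose level bears on the response of leukemia to asparaginase, was at 1.24 and 1.47 CPM. The other 5 lines had *Asns* at 131 to 406 CPM, so its SD of 3.20 came from the pair and fell to 2.70 with the pair averaged.

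At the other end, the SDs of the 20 steadiest genes lay between 0.028 and 0.055, their means between 31.6 and 553 CPM, and the highest line exceeded the lowest by 1.05-fold to 1.12-fold. *Wac*, an adaptor of histone ubiquitination, had the smallest SD, 0.0280, and ranged from 152 CPM in SKO137.1 through a median of 154 to 160.0 CPM in SKO186.5. *Ssrp1*, a subunit of the histone chaperone FACT, had the highest mean of the 20, 553 ± 17.6 CPM (SD, n = 7), and *Nop56*, a core protein of small nucleolar particles, was at 380.4 to 416 CPM. Also in the list were *Ldb1*, a bridge between transcription factors, at 238 to 264 CPM, *Gosr2* and *Gga1* of Golgi transport, *Mrps5* of the mitochondrial ribosome, *Yme1l1*, a mitochondrial protease, and *Nr1h2*, the oxysterol receptor LXRβ. Under median-of-ratios scaling the SD of *Wac* was 0.0488, that of *Gga1* went from 0.0408 to 0.0643, and that of *Ssrp1* from 0.0452 to 0.0215.

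For 13 of these 20 genes the SD was within 1.5 times the SD that counting alone gives, so their order reflects depth as much as spread. *Zfp606*, with the lowest mean of the 20 at 31.6 CPM, had an SD of 0.0407 and a counting SD of 0.0584. The same genes did not keep their rank when lines were left out: with SKO156.6 and SKO186.5 averaged 8 of the 20 were still among the 20 steadiest, and with 1 line left out 9 to 13 were, fewest without SKO156.6.

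All 20 proliferation genes reached 5 CPM in every line, none had an SD of 1 or more, 5 had an SD under 0.15, and their median SD was 0.20. Of all genes with a mean of 200 to 500 CPM, 3.31% had an SD of 1 or more and 20.3% an SD under 0.15, and their median SD was 0.22. *Ccnb1*, the cyclin of mitotic entry, was the steadiest of them, from 165 CPM in SKO115.2 to 191 CPM in SKO137.1. *Mki67*, the proliferation antigen Ki-67, was the widest and differed most within the pair, at 735 CPM in SKO156.6 and 1448 CPM in SKO186.5, which were the lowest and the highest of the 7 lines. *Top2a* ranged from 966 CPM in SKO156.6 to 1744 CPM in SKO163.5. The replication helicase genes *Mcm2* to *Mcm7* had SDs from 0.14 to 0.29. SKO95 had the highest summed level of the list, 10225 CPM, and SKO132 the lowest, 8213 CPM.

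Common reference genes and ribosomal protein genes had no member with an SD of 1 or more. Among 16 reference genes 5 had an SD under 0.15, as had 13.8% of all 9710 genes and 20.3% of those at 200 to 500 CPM. *Eef2* had an SD of 0.0756, *Tbp* and *Ywhaz* of 0.12 and 0.13, *Gapdh* of 0.20, *Actb* of 0.42 and *B2m* of 0.57, the largest of the list. *B2m*, the light chain of MHC class I, was at 189 CPM in SKO132 and at 300.2 to 585 CPM elsewhere. The 79 cytosolic ribosomal protein genes had a median SD of 0.22, where all genes at 500 CPM or more had one of 0.21. With the pair averaged and without SKO132 the median SD of the 79 was 0.12. SKO132 was the lowest line for 53 of them and for 1941 of all 9710 genes, and SKO186.5 for 22 and for 991. SKO115.2 and SKO156.6 were the highest for 35 each, where they were the highest for 1636 and 1362 of all 9710 genes. The summed level of the 79 genes was 38153 CPM in SKO132, 40107 in SKO186.5, 46459 in the median line, 52838 in SKO156.6 and 53141 in SKO115.2. The pair thus lay near opposite ends. *Rpl22l1*, which encodes a paralog that replaces RPL22 in ribosomes, had the largest SD of the 79, 0.71, and was at 22.8 CPM in SKO132 against 59.3 CPM or more elsewhere. *Rpl22* itself, lost in some T cell leukemias, was at 302 to 438 CPM.

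Of 8 CDK inhibitors and tumour suppressors at a mean of 5 CPM, 2 had an SD of 1 or more, with or without SKO132, and the median SD of the list was 0.50. Of all 9710 genes, 12.3% had an SD of 1 or more. *Cdkn2a*, which encodes p16 and ARF, was at 125 CPM in SKO132, listed at 0 in SKO95, and at 6.50 CPM or lower in the other 5. *Trp53* was at 160.3 CPM in SKO132 and at 269 to 326 CPM in the other 6. SKO132 was thus the highest line for *Cdkn2a* and the lowest for *Trp53*. *Fbxw7*, the ubiquitin ligase that degrades Notch and MYC, was steady at 34.8 to 42.0 CPM. *Rb1* was highest in SKO132 as well, at 135 CPM, with 67.0 to 114.9 CPM in the other lines.

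Interferon-stimulated genes did not move as 1 group. Of 7 at a mean of 5 CPM, 3 had an SD of 1 or more, where 12.3% of all 9710 genes did. *Mx1*, an antiviral GTPase, was at 298 CPM in SKO132, 21.1 to 41.3 CPM in SKO137.1, SKO156.6 and SKO186.5, and at 0.753 CPM or lower in SKO95, SKO115.2 and SKO163.5. *Usp18*, a brake on interferon signalling, was instead read in SKO115.2, SKO163.5 and SKO95, at 124, 52.9 and 20.7 CPM, and at 0.871 CPM or lower in the 4 lines with *Mx1*. The class I heavy chains *H2-K1* and *H2-D1* were highest in SKO132, at 168 and 171 CPM, and lowest in SKO95, at 10.8 and 24.6 CPM, while the peptide transporters *Tap1* and *Tap2* had SDs of 0.23 and 0.30. Of 7 MHC class I genes *H2-K1* alone had an SD of 1 or more. SKO132 was thus high for *Mx1* and the heavy chains and low for *B2m*.

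Imprinted and immediate early genes held single contrasts. Of 12 imprinted genes 4 are listed, 2 of the 3 at a mean of 5 CPM had an SD of 1 or more, and *H19* and *Grb10*, which restrain growth, were highest in SKO186.5 and SKO156.6, with *H19* at 26.7 and 22.8 CPM and *Grb10* at 27.8 and 22.9 CPM. *H19* was next at 8.14 CPM in SKO115.2, and *Grb10* was at 1.05 CPM or lower in the other 5 lines. Of 10 immediate early genes 7 are listed, and 1 of the 4 at a mean of 5 CPM had an SD of 1 or more. Of all 9710 genes, 12.3% did. *Egr1* and *Nr4a1*, both induced by receptor signalling, were highest in SKO115.2 at 20.4 CPM and in SKO163.5 at 22.4 CPM, while *Junb* had an SD of 0.22.

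The median level of the genes of a chromosome differed in a few lines, and positions along the chromosome were not examined. For each gene of a chromosome the distance of a line from the median of the other lines was taken on the log2(CPM + 1) scale, and the median of these distances is given per line and chromosome. On chromosome 14 this was 0.46 in SKO132 and 0.49 in SKO137.1, and between -0.12 and -0.08 in the other 5 lines. In SKO132 300 (86.7%) and in SKO137.1 296 (85.5%) of the 346 genes of chromosome 14 lay above the median of the other lines. On chromosome 6 SKO163.5 was at 0.37, with 369 of 458 genes (80.6%) above that median, and the others lay between -0.082 and 0.006. On the other chromosomes all lines lay between -0.058 and 0.108, and the highest of these was SKO95 on chromosome 4. The measure is relative within the group, so a change shared by most or all of the lines does not show in it. The paper names trisomy of chromosome 15 as a feature also observed in *E2a-/-* leukemias. On that chromosome all lines lay between -0.024 and 0.021, and a gain shared by them was not tested. Genes with an SD of 1 or more made up 19.2% on chromosome 6, 17.7% on chromosome 3, 15.2% on chromosome 15 and 12.7% on chromosome 14, where 12.3% of all genes reached it, and the median SD was 0.40 on chromosome 14, 0.33 on chromosome 6 and 0.25 to 0.29 on the others.

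The DKO lines offer the same measure in other leukemias, given side by side and with no test. Over the same 9710 genes the median SD in the 8 DKO lines was 0.34, an SD of 1 or more was reached by 946 genes (9.74%) and an SD under 0.15 by 707 (7.28%). The 9710 genes were taken by their mean in the *E2a-/-* lines alone, so these shares were not taken on equal terms in the groups. SDs in the groups correlated at a Spearman's rho of 0.672 across genes, which are not independent replicates and share their levels. Of the 20 genes with the largest SD in the *E2a-/-* lines, 15 had an SD of 1 or more in the DKO lines, *Xist* with 4.84 and *Adam19* with 2.63 among them. The other 5 were *Tox2* with 0.25, *Ctnnd1* with 0.36, *Chd3* with 0.62, *Sorl1* with 0.82 and *Pkp4* with 0.92. Of the 20 steadiest genes, 5 had an SD under 0.15 in the DKO lines, and the SDs of the 20 there went from 0.11 to 0.40. Both lists were picked by the SD in the *E2a-/-* lines, so less extreme SDs in other lines follow from the choice.

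Promoters of variable and steady genes differed in CpG content. The 250 bases upstream of each start were read from RefSeq on GRCm38.p6, for the 6035 of the 9710 genes with a single entry in that set. The median number of CpG dinucleotides was 14 for 616 genes with an SD of 1 or more, 17 for all 6035 genes and 18 for 907 genes with an SD under 0.15. At most 3 CpG were found in 14.3% of the variable genes, in 4.04% of all 6035 and in 1.10% of the steady ones, against 39.4% of all 22862 promoters of that length. Since variable genes have lower levels, genes at 50 CPM or more were also taken alone, and the shares there were 13.9% of 122 variable, 2.31% of 3032 and 1.13% of 620 steady genes. The letters TATAAA on either strand were found in 7.31% of variable, 5.37% of all 6035 and 5.51% of steady genes, against 13.6% of the 22862. These counts describe the letters in the window and say nothing on which factor binds there.

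Shown are the windows of *Xist* and *Gfra1*, the variable genes, and *Gpn3* and *Zfp606*, the steady genes, that came first by SD among the ranked genes with a single RefSeq entry on GRCm38.p6. They are printed 5′ to 3′ in the direction of the gene, with CpG dinucleotides in capitals. *Xist* lies on the minus strand at chrX:103483234-103483483 with 11 CpG, and *Gfra1* on the minus strand at chr19:58455399-58455648 with 10. *Gpn3*, a GTPase of RNA polymerase II assembly, lies on the plus strand at chr5:122372258-122372507 with 29 CpG, and *Zfp606*, a zinc finger gene, on the plus strand at chr7:12478055-12478304 with 10.
Xist: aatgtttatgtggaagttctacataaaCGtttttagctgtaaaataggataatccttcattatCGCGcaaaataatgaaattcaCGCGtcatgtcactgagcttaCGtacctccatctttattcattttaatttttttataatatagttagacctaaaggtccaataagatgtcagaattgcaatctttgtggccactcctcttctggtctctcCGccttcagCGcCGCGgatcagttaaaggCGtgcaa
Gfra1: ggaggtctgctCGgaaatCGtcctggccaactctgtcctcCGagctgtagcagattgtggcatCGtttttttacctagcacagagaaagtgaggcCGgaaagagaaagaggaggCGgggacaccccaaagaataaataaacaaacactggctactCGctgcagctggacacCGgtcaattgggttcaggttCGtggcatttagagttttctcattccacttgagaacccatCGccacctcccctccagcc
Gpn3: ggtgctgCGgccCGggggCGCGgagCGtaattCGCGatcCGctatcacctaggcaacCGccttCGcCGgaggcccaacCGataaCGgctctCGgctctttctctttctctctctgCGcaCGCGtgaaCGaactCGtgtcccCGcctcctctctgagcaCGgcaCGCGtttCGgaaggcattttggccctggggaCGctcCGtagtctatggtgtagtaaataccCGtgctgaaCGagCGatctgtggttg
Zfp606: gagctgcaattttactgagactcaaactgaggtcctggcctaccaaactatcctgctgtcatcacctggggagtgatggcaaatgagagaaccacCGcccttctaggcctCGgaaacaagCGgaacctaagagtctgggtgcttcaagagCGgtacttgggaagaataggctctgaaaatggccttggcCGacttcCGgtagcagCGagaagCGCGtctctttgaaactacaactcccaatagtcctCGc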

How the data were processed

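Total RNA of 7 *E2a-/-* leukemia lines was sequenced, 1 library per line. Per the labels the reads were trimmed (Trimmomatic 0.33), aligned to mm10 (TopHat2 2.1.0), counted (HTSeq 0.6.1) and normalized in edgeR. The deposited values are in CPM, which the authors made from the reads assigned to genes in each line. Every value above 0 was a whole multiple of 1 step per line (100%, tolerance 0.1), so whole reads were recovered and no further factor between libraries was applied. How the authors selected the listed genes is not stated.

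Spread was the SD of log2(CPM + 1), with a pseudocount of 1, over genes at a mean of 5 CPM or more. It was also computed with SKO156.6 and SKO186.5 averaged. No paired analysis was possible because each line is 1 leukemia measured once, and no p was computed, since the 7 lines form a single group. Counting SDs came from the recovered reads, shares have 95% Wilson intervals, and the floor was 3 reads. Likeness was measured by Spearman's rho and by a chi-square statistic per degree of freedom on reads. The measures were tested on simulated data. Python 3.11.15, numpy 2.4.6, pandas 2.3.3, scipy 1.17.1, matplotlib 3.10.9, R 4.3.3 and edgeR 4.0.16 (tagwise dispersion) were used.

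The genes named are the 20 with the highest mean CPM, the 20 with the largest and the 20 with the smallest SD, the 3 genes farthest up and the 3 farthest down in each line, members of the lists, and *Tcf3*, and the text says which others were chosen after their values were seen. The lists are T-lineage, E protein and Id, progenitor, CD4-CD8-, CD4+CD8+, mature, γδ, NK, B cell, myeloid, erythroid, stromal, Notch, CDK inhibitor and tumour suppressor, proliferation, reference, interferon, MHC class I, sex-linked, imprinted, immediate early, Hox, ribosomal protein, mitochondrial, receptor β, α or δ and γ genes, and GIMAP genes. Members, lists and thresholds were chosen with earlier results of these data known. Exon lengths were taken from GENCODE vM21 in place of the listed width, which exceeds the span of some genes and is no plain exon length. Positions in the table do not match GRCm38, so promoter positions came from RefSeq on GRCm38.p6. Alternatives changed the pseudocount, the minimum mean, the scaling, the measure of spread, the ranking by length and the lines used. The 8 DKO lines were used only for SDs given side by side.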

Additional observations from a re-analysis of the deposited data

Results flagged for a closer look

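Values in which 1 of the 7 lines lay far from the other 6 are given here, for genes on the scale of log2(CPM + 1). Of 226 values looked at, 48 were of this kind, where chance gives about 1 in 20 per value. The genes are not independent, and many were named because they differed between lines. The 48 values divide into 24 in SKO132, 9 in SKO95, 9 in SKO115.2, 4 in SKO163.5 and 2 in SKO156.6, with none in SKO137.1 or SKO186.5.

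In SKO132, 16 genes lay below all other lines. Among genes of the T cell receptor and its signals, *Trbc1* was at 0.276 CPM, *Cd3d* at 47.0, *Cd3g* at 142, *Zap70* at 35.9, *Skap1* at 0.165, *Themis* at 43.2 and *Rag2* at 0.165 CPM. The transcription factors *Ikzf1* and *Lef1* were at 3.86 and 59.0 CPM, and *Id2* was at 5.07 CPM. *Notch3* was at 32.2 CPM and *Dtx1* at 0.221 CPM. The chromatin genes *Dnmt3a* and *Crebbp* were at 0.276 and 0.221 CPM, and *Trp53* was at 160.3 and *Rpl22l1* at 22.8 CPM. SKO132 lay above the other lines for 8 genes. These were *Ccn4* at 818 CPM, *Dlk1* at 699, *Thbs2* at 359.9, *Ybx3* at 268, *Cdkn2a* at 125, *Trac* at 112, *Trav21-dv12* at 54.2 and *Zbtb7b* at 16.3 CPM.

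SKO95 lay below the others for *Braf* at 1.29 CPM, *Ikzf3* at 3.41 and *Tcf7* at 799.8 CPM. It lay above them for *Dntt* at 1995 CPM, *Gm525* at 200.1, *Hey1* at 128 and *Tal1* at 7.97 CPM, and for *Igkc* at 0.0461 CPM, which is a single read. The median log2 difference of the genes of chromosome 4 was 0.108 in SKO95. SKO115.2 lay below the others for *Rnpep*, listed at 0, and *Tbc1d4* at 0.0518 CPM. It lay above them for *Ddx3y* at 129 CPM, *Trbv20* at 388, *Nkg7* at 24.7, *Egr1* at 20.4, *Prf1* at 8.19 and *Cd22* at 3.73 CPM, and for the summed level of the erythroid and megakaryocyte genes at 22.9 CPM.

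SKO163.5 lay above the others for *Trbv19* at 631 CPM and *Tcrg-V4* at 19.5 CPM. Its median log2 difference was 0.37 on chromosome 6 and -0.055 on chromosome 19. In SKO156.6 *Lars2* was at 6031 CPM and *Rn7sk* at 55.9 CPM. The causes of these differences were not tested.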

How the results depend on the processing

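Of the values of summaries under alternatives, 28 moved. None changed sign, but counts and SDs cannot do so, which makes sign no test of them. A median SD was taken as moved beyond 0.0281, its jackknife spread, which comes from leaving lines out. For a median rho the limit was 0.0346, the SD of rho over pairs of lines, and for counts a change of more than 1.5 times. Under each alternative the genes at the minimum mean were taken anew, while the report gives SDs without SKO132 over the same 9710 genes and genes with 1 line apart over genes taken anew. The genes at a mean of 5 CPM, the T-lineage genes at 5 CPM in every line and the genes with 1 line apart were not among the 28.

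A minimum mean of 1 CPM gave a median SD of 0.31, and one of 20 CPM gave a median SD of 0.25, 540 genes with an SD of 1 or more and a median rho of 0.864, by construction, since fewer genes with few reads enter. The median absolute deviation, scaled to the SD, gave a median of 0.24, 724 genes at 1 or more and 2562 under 0.15, and shared 5 of the 20 most variable and 0 of the 20 steadiest genes with the lists as reported. Averaging SKO156.6 and SKO186.5 and leaving SKO132 out together, chosen after seeing the data, gave a median SD of 0.23, 2407 genes under 0.15, and 12 and 8 shared genes. Averaging that pair alone kept 8 of the 20 steadiest genes.

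A pseudocount of 0.1 kept 10 of the 20 most variable genes, and median-of-ratios scaling, with factors of 0.982 to 1.04, kept 12 of the 20 steadiest. Ranking by edgeR's tagwise dispersion kept 0 and 4. Its 20 largest dispersions were of genes with means of 5.39 to 51.5 CPM that were listed at 0 in a line. Ranking by CPM per kilobase of the listed width kept 12 of the 20 genes with the highest mean. Of the SDs of 199 named genes, averaging the pair moved 8 by more than 1.5 times. These were the SDs of *Cbl*, *Fbxw7*, *Malat1*, *Mki67*, *Ptma*, *Rpl4*, *Rplp1* and *Ywhaz*. Median-of-ratios scaling moved 4 by more than 1.5 times (*Gga1*, *Gpn3*, *Ssrp1* and *Wac*). No mean of the 199 genes moved by more than its SD between lines. Except where a construction is named, the cause was not tested.

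With 1 line left out the most variable list kept 12 (without SKO115.2) to 17 genes (without SKO137.1), 13 without SKO132, and the steadiest list kept 9 (without SKO156.6) to 13 (without SKO137.1). The median SD then ranged from 0.25 to 0.29, genes with an SD of 1 or more from 917 (without SKO132) to 1273, genes under 0.15 from 1230 to 1821 (without SKO132), genes with 1 line apart from 623 to 909, T-lineage genes at 5 CPM in every line from 22 to 26, and the median rho from 0.914 to 0.934. Depth limits values of 3 reads or fewer, and it limits the order of the steadiest genes.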
